A study of Mus musculus with 6 samples.

Results

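The tetraspanins are a family of small membrane proteins, and their transcripts were compared between mouse mammary tumour cells with and without a hairpin against CdGAP. Members were taken by gene symbol: every mouse gene named Tspan followed by a number (20 genes) and Cd9, Cd37, Cd53, Cd63, Cd81, Cd82, Cd151 and Upk1a (8 genes), which made 28 of the 41214 genes in the files. RNA-seq counts came from 6 libraries of NMuMG-derived tumour explant cells that express the receptor tyrosine kinase ErbB2. NMuMG cells are epithelial cells grown from healthy mouse mammary gland. In the control group (shCTL, n = 3, genotype WT) the cells carried a control short hairpin RNA, and in the other group (shCdGAP, n = 3, genotype CdGAP KD) a hairpin that lowers CdGAP, a protein that switches off the GTPases Cdc42 and Rac1. All 6 libraries share the ErbB2-expressing explant origin, and it is not stated in the labels if replicates are separate cultures or if a group is 1 clone, so the spread behind each p-value is that of the libraries and may be technical.

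A tetraspanin crosses the membrane 4 times and has a large extracellular loop with a conserved Cys-Cys-Gly run. Tetraspanins bind each other and partner proteins side by side in the membrane, and in this way they place integrins, proteases and receptors at the cell surface and sort cargo into late endosomes and exosomes. In mammary and other epithelia they are known for effects on adhesion, migration and shedding of surface proteins.

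The family mark was read from the coding sequences (GENCODE M21 transcripts, GRCm38). An in-frame Cys-Cys-Gly run, spelled TGTTGTGGN, TGTTGCGGN, TGCTGTGGN or TGCTGCGGN on the coding strand, was present in all 28 members, against 2.56% of 21756 genes with a complete coding transcript and 2.14% of 5414 genes whose coding length lay in the members' range of 615 to 999 bases. The run began between codons 128 and 211, taking the last run within the first 75% of the coding sequence. The 6 members below are the ones whose transcripts passed the test in the comparison of the groups. Capitals mark the 9 bases of the run, and 27 coding bases stand on each side, 5′ to 3′.
Tspan8: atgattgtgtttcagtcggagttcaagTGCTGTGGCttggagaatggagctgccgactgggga
Tspan15: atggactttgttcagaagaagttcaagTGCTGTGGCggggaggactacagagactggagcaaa
Tspan33: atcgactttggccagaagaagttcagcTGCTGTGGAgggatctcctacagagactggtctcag
Tspan11: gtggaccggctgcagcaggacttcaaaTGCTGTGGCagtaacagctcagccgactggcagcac
Tspan6: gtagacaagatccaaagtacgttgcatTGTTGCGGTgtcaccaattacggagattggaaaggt
Cd53: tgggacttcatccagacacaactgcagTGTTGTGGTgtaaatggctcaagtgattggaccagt
The runs lie at chr10:115839881-115839889 (Tspan8, plus strand), chr10:62191570-62191578 (Tspan15, minus), chr6:29716711-29716719 (Tspan33, plus), chr6:127943223-127943231 (Tspan11, plus), chrX:133895048-133895056 (Tspan6, minus) and chr3:106763278-106763286 (Cd53, minus). The closest pair in coding sequence was Tspan5 and Tspan17, whose identical bases made up 72.1% of the longer coding sequence.

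Fragments assigned to genes totalled 19176540 to 26824249 in each library. On this depth 1 count corresponded to 0.0364 to 0.0516 CPM (counts per 1e+06, on TMM-scaled totals). The targeted gene Arhgap31, which encodes CdGAP, was at 13.2, 14.4 and 15.1 CPM in shCTL replicates 1 to 3 and at 1.70, 9.16 and 8.21 CPM in shCdGAP replicates 1 to 3 (log2 fold change −1.16, edgeR adjusted p = 0.19), so the groups did not overlap but the difference did not pass the test. One library stood apart. In a principal component plot the groups separated along an axis with 72.0% of the variance, and shCdGAP replicate 1 lay away from the other shCdGAP libraries along an axis with 21.7%. Values are therefore given with and without that library where it matters. Keratins of simple epithelium were abundant (Krt8 at 3611 ± 805 CPM and Krt18 at 3042 ± 474 CPM in shCTL, SD, n = 3), while Epcam, a further epithelial marker, was at 1.29 ± 0.317 CPM in shCTL with 0 counts in shCdGAP, and Cldn3 and Cldn7 had 0 counts in every library. Of 10 tested epithelial markers 3 rose, Cdh1 and Esrp2 among them, and 3 fell, Krt5 (100 to 2 counts) and Grhl2 (169 to 3 counts) among them. Of all tested genes 10.4% were called higher and 11.4% lower. Markers of other cell types summed to at most 7.11 CPM (fibroblasts), 2.77 CPM (endothelium) and 6.81 CPM (adipocytes) in any library. Their called genes were Tek among 2 tested endothelial markers and Fabp4 and Cidec among 3 adipocyte markers, all lower (with the replicate block the adjusted p was 0.0547 for Tek and 0.0778 for Cidec). Erbb2, chosen like Krt8, Krt18 and Epcam after its values were seen, fell from 692 ± 73.9 to 202 ± 56.8 CPM (adjusted p = 0.00341).

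Of the 28 members, 25 passed the filter on low counts and were tested with edgeR's quasi-likelihood test, with Benjamini-Hochberg adjustment over 13483 genes and a threshold of 0.05. Tspan8, Tspan15 and Tspan33 rose in shCdGAP, and Tspan11, Tspan6 and Cd53 fell. These 6 members were 24% of those tested, and 21.7% of all tested genes were called (10.4% higher and 11.4% lower), so the share of tetraspanins called was close to the background. The median log2 fold change was 0.09 over the 25 tested members and 0.01 over all tested genes. Groups did not overlap for 11 of the 25 members (44%), against 44.1% of all tested genes.

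**Figure D1:**
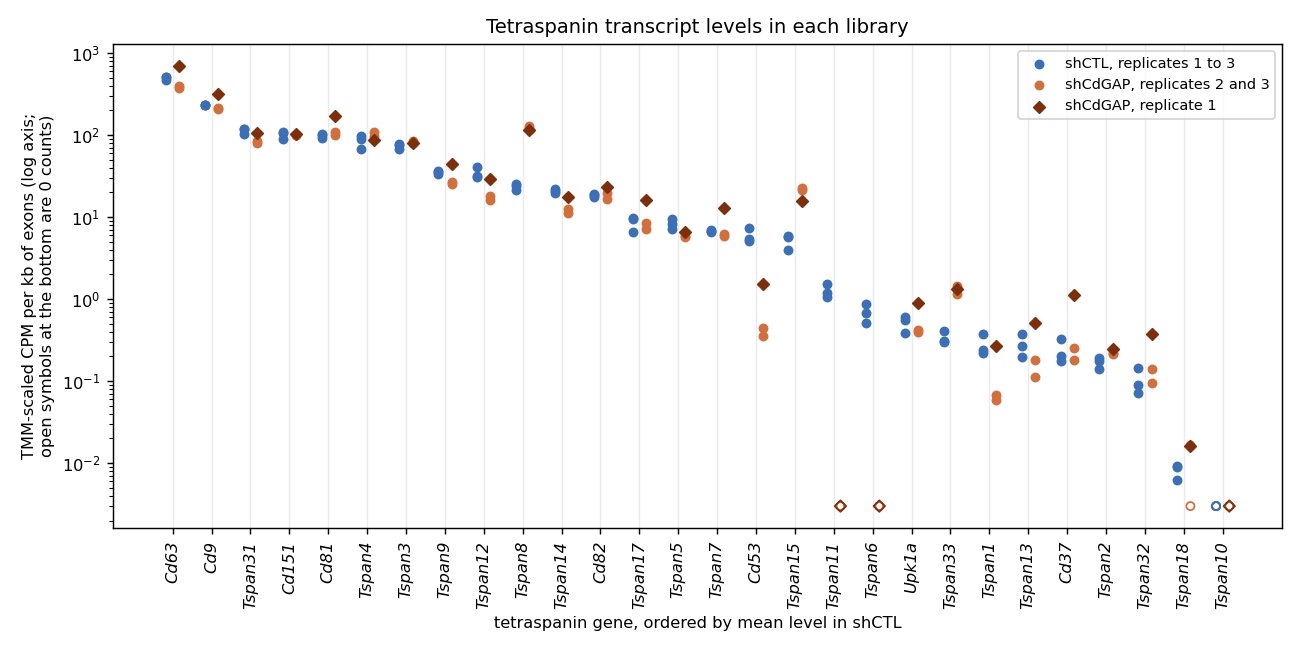
Level of each of the 28 tetraspanin transcripts in each library, as TMM-scaled CPM per kb of exons on a log axis, with genes ordered by their mean in shCTL. Blue points are shCTL libraries, orange points shCdGAP replicates 2 and 3, dark diamonds shCdGAP replicate 1, and open symbols at the bottom are libraries with 0 counts; Tspan11 and Tspan6 drop to 0 in all 3 shCdGAP libraries, and Tspan8 and Tspan15 lie above every shCTL library.

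Tspan8, a surface tetraspanin of digestive and other epithelia that is often abundant in carcinomas, had the largest rise among the members. In bulk RNA, fewer cells with a transcript and less transcript per cell cannot be told apart, for this and every other gene. Its levels were 32.7, 36.9 and 38.1 CPM in shCTL replicates 1 to 3 (35.9 ± 2.83) and 173, 185 and 197 CPM in shCdGAP replicates 1 to 3 (185 ± 11.9, SD, n = 3). All 3 shCdGAP libraries were far above all 3 shCTL libraries, shCdGAP replicate 1 included. The log2 fold change was 2.36 ± 0.112 (SE), a 5.15-fold rise (adjusted p = 0.00016). Per kb of exons Tspan8 moved from the tenth place in the family in shCTL (23.6 CPM per kb) to the fourth in shCdGAP (121 CPM per kb). The gene (ENSMUSG00000034127) lies on GRCm38 chromosome 10 from 115817284 to 115849893.

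Tspan15 and Tspan33 belong to the TspanC8 group, which carries the protease ADAM10 to the cell surface and influences which proteins it cuts. Tspan15 was at 14.1, 21.2 and 20.5 CPM in shCTL (18.6 ± 3.88) and at 57.0, 77.8 and 81.1 CPM in shCdGAP (72 ± 13, SD, n = 3). It was higher in each shCdGAP library than in any shCTL library, with the lowest of the 3 in replicate 1. The rise was 3.87-fold (log2 fold change 1.95 ± 0.217 SE, adjusted p = 0.00186). Tspan33, which is best known from B cells and red cell precursors, was far scarcer, at 1.60, 2.15 and 1.58 CPM in shCTL and 6.88, 5.94 and 7.41 CPM in shCdGAP. Its groups were also fully separate, and the rise was 3.78-fold (log2 fold change 1.92 ± 0.218 SE, adjusted p = 0.002). Both calls held when any library was left out. Tspan15 (ENSMUSG00000037031) lies on chromosome 10 from 62185396 to 62231218 and Tspan33 (ENSMUSG00000001763) on chromosome 6 from 29694222 to 29718559.

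The other TspanC8 genes were not called higher. Tspan5 and Tspan14, TspanC8 members known to favour cleavage of Notch by ADAM10, were lower in every shCdGAP library than in any shCTL library without passing the test. Tspan5 was at 36.8, 31.8 and 28.3 CPM in shCTL and 25.8, 22.1 and 22.8 CPM in shCdGAP (log2 fold change −0.46 ± 0.145 SE, adjusted p = 0.0712). Tspan14 was at 54.6, 49.1 and 50.7 CPM in shCTL and 43.6, 31.5 and 28.0 CPM in shCdGAP (log2 fold change −0.58 ± 0.183 SE, adjusted p = 0.0679). With the replicate number as a block the Tspan14 log2 fold change was −0.61 and passed (adjusted p = 0.0492), and without shCdGAP replicate 1 both passed (Tspan5 −0.51, adjusted p = 0.0156; Tspan14 −0.78, adjusted p = 0.000688). DESeq2 also called both lower (adjusted p = 0.0383 for Tspan5 and 0.0256 for Tspan14), and Tspan14 passed among genes with a mean of at least 1 CPM (adjusted p = 0.0496). Tspan5 did not pass among those genes (0.0565), nor with the block (0.0626). Neither passed with RLE size factors (0.0661 for Tspan5, 0.0567 for Tspan14) or without a filter on low counts (0.0985 and 0.0539). Leaving out any single library but shCdGAP replicate 1, neither passed (up to 0.201 and 0.191). Tspan17 was at 11.0, 16.0 and 15.6 CPM against 26.5, 13.97 and 11.7 CPM, with overlapping groups and its highest value in shCdGAP replicate 1 (adjusted p = 0.593). Tspan10 had 0 counts in all 6 libraries, so its level could be as high as 0.109 to 0.155 CPM depending on the library (3 counts, counting error only).

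Adam10 itself was at 197 ± 8.14 CPM in shCTL and 213 ± 24.9 CPM in shCdGAP (log2 fold change 0.11 ± 0.115 SE, adjusted p = 0.547). Per kb of exons, Tspan14 led the TspanC8 genes in shCTL, with 20.8 CPM per kb against 5.16 for Tspan15. In shCdGAP the mean level of Tspan15 was 19.96 CPM per kb against 13.9 for Tspan14. Tspan15 was above Tspan14 in shCdGAP replicates 2 and 3, and below it in replicate 1 (15.8 against 17.6 CPM per kb). Among Adam10 and its known substrates, 26 of 30 were tested, 3 rose and 6 fell (median log2 fold change 0.06). Over all tested genes 10.4% were called higher and 11.4% lower, and whether this list differed from that was not tested. Cdh1, which encodes E-cadherin, rose from 232 ± 51.5 to 768 ± 85.3 CPM (adjusted p = 0.00193). Met, which encodes a receptor tyrosine kinase, rose from 99.5 ± 5.87 to 200 ± 44.1 CPM (adjusted p = 0.00995). The Notch receptor gene Notch4 fell from 18.4 ± 0.904 to 1.501 ± 0.195 CPM (adjusted p = 0.000163) and the Notch ligand gene Dll4 from 6.02 ± 1.96 to 0.141 ± 0.0546 CPM (adjusted p = 0.000577). Other Notch genes, named after their values were seen, did not pass. Higher in every shCdGAP library were Notch1 (20.5 to 36.5 CPM, adjusted p = 0.0625), Jag1 (48.2 to 78.3 CPM, 0.0746) and Notch2 (93.6 to 112 CPM, 0.125). Dll1 was lower with overlapping groups (1.41 to 0.600 CPM, 0.221), and Notch3 was too scarce to test. Cdh2, the gene of N-cadherin, a substrate that TSPAN15 directs ADAM10 to, rose from 111 ± 3.57 to 179 ± 35.1 CPM (adjusted p = 0.0236). Both Cdh2 and Adam10 were named after their values were seen, and the Cdh2 call was lost without any one shCTL library or without shCdGAP replicate 2 (adjusted p up to 0.103). The Met call was lost without shCTL replicate 2 or 3 (adjusted p = 0.0559 and 0.0521).

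**Figure D2:**
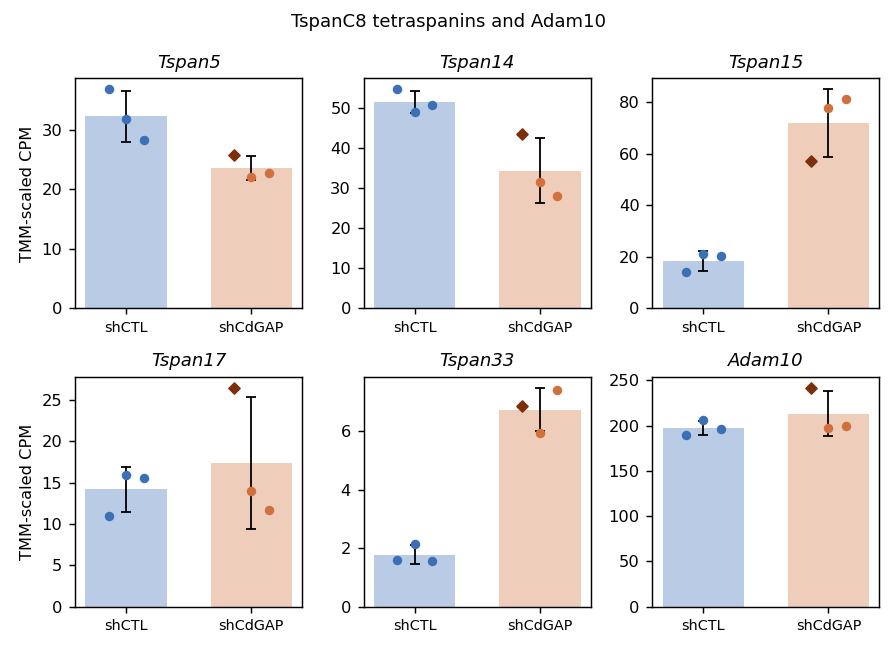
TMM-scaled CPM of 5 TspanC8 genes and Adam10. Bars are group means, error bars SD (n = 3), circles single libraries and dark diamonds shCdGAP replicate 1; Tspan15 and Tspan33 are higher in all shCdGAP libraries, Tspan5 and Tspan14 are lower in all of them, and Adam10 overlaps.

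Tspan11 fell to 0 counts. It is the member closest to Cd151 in coding sequence, with 762 coding bases in each and 66.1% identical bases. Tspan11 was at 6.66, 5.13 and 4.63 CPM in shCTL replicates 1 to 3 (393 counts in all) and had no count in any shCdGAP library. With 3 counts over the whole group as the floor, it was at least 124-fold lower in shCdGAP (adjusted p = 0.00109). Cd151, an adaptor of laminin-binding integrins, did not follow. Its levels were 179, 211 and 216 CPM in shCTL and 205, 203 and 204 CPM in shCdGAP, so the groups overlapped (log2 fold change 0.01 ± 0.106 SE, adjusted p = 0.942). Of the 6 tetraspanins listed as integrin-associated, 1 was called (Tspan8, higher), and the median log2 fold change was 0.16. Over all tested genes 21.7% were called. Tspan9, a tetraspanin known from platelets, is the next gene to Tspan11 on chromosome 6, 8364 bases away on the opposite strand. It was at 175, 160 and 169 CPM in shCTL and 208, 126 and 121 CPM in shCdGAP, with overlapping groups (adjusted p = 0.684). Tspan11 (ENSMUSG00000030351) lies from 127887589 to 127953031 on chromosome 6.

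Tspan6, an X-linked tetraspanin of endosomes, also fell to 0 counts. It was at 1.81, 1.38 and 1.05 CPM in shCTL (101 counts) and had none in shCdGAP, at least 31.9-fold lower (adjusted p = 0.00363). Its closest relative is Tspan7, also X-linked and known from neurons, with 62.4% identical coding bases. Tspan7 was at 46.7, 48.2 and 48.6 CPM in shCTL and 91.4, 44.3 and 41.4 CPM in shCdGAP, where only replicate 1 was above the shCTL libraries (adjusted p = 0.543). The nearest tested gene on 1 side of Tspan6 on chromosome X, Sytl4, 37956 bases away, rose from 2 counts in shCTL to 47 in shCdGAP (0.0247 ± 0.0214 to 0.673 ± 0.0802 CPM, adjusted p = 0.00226). On the other side Pcdh19, 202075 bases away, had a lower mean in shCdGAP without passing (3.33 to 1.23 CPM, log2 fold change −1.43, edgeR adjusted p = 0.0537). Tspan6 (ENSMUSG00000067377) lies from 133891068 to 133898429.

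Cd53, a tetraspanin of leukocytes, was present in shCTL and fell in shCdGAP. It was at 20.6, 14.96 and 14.3 CPM in shCTL (16.6 ± 3.46) and at 4.25, 0.998 and 1.23 CPM in shCdGAP (2.16 ± 1.81, SD, n = 3). The groups were separate, and shCdGAP replicate 1 lay between its replicates and the shCTL libraries. The log2 fold change was −2.94 ± 0.566 (SE, adjusted p = 0.0136), and −3.87 without shCdGAP replicate 1 (adjusted p = 2.35e-05). Most leukocyte markers were at or near 0. Of 20 genes, 15 stayed under 1 CPM in every library, with Tyrobp and Adgre1 at 0 counts throughout and Ptprc at 0.0793 to 0.358 CPM. Their summed level was 176 to 184 CPM in shCTL and 123 to 207 CPM in shCdGAP, most of it from Cd14. Of 7 tested markers 1 was called, Itgam, which rose from 0.213 ± 0.123 to 1.41 ± 0.236 CPM (adjusted p = 0.00788). The share called over all tested genes was 21.7%. Cd68, a macrophage marker that is also a late endosome gene and was named after its values were seen, was at 21.7, 15.4 and 15.6 CPM in shCTL and 10.9, 5.53 and 2.93 CPM in shCdGAP. Like Cd53 it was lower in every shCdGAP library and highest of the 3 in replicate 1, but it did not pass (log2 fold change −1.45 ± 0.46 SE, adjusted p = 0.0709). Cd68 passed as lower with the replicate block (adjusted p = 0.0322), with DESeq2 (0.00896), without a filter on low counts (0.0405) and without shCdGAP replicate 1 (0.000899). Its part in the Cd53 result was not tested. The other leukocyte tetraspanins were scarce. Cd37 was at 0.619, 1.16 and 0.715 CPM in shCTL and 3.98, 0.907 and 0.634 CPM in shCdGAP (adjusted p = 0.337), and Tspan32, with 22 and 40 counts over the groups, was not tested. Cd53 (ENSMUSG00000040747) lies on chromosome 3 from 106758861 to 106790149.

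The tetraspanins that mark extracellular vesicles made up most of the family's transcripts, and Cd63, Cd9, Cd81 and Cd82 did not pass the test. Cd63, a tetraspanin of late endosomes and exosomes, led the family in both groups at 492 and 486 CPM per kb. Its levels were 477, 524 and 520 CPM in shCTL and 716, 406 and 383 CPM in shCdGAP. Replicate 1 lay above all 3 shCTL libraries and replicates 2 and 3 lay below them, and the mean difference was near 0 (log2 fold change −0.02 ± 0.249 SE, adjusted p = 0.972). Without replicate 1 the Cd63 log2 fold change was −0.35 ± 0.085 and passed (adjusted p = 0.0121). Cd63 has a processed copy, Cd63-ps, counted at 33.3 to 36.5 CPM in shCTL and 25.6 to 45.8 CPM in shCdGAP, with which it could share reads.

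Cd9, which binds integrins and the immunoglobulin proteins encoded by Igsf8 and Ptgfrn, showed the same layout of libraries. It was at 468, 476 and 476 CPM in shCTL and 651, 436 and 421 CPM in shCdGAP (adjusted p = 0.787). Cd81, a partner of the B cell receptor complex and of integrins, was at 211, 225 and 231 CPM in shCTL and 389, 247 and 226 CPM in shCdGAP (log2 fold change 0.37 ± 0.214 SE, adjusted p = 0.273). Cd82, known as a metastasis suppressor, was at 53.1, 56.1 and 57.0 CPM against 70.8, 49.7 and 59.7 CPM (adjusted p = 0.626). For each of these 4 genes the highest of the 6 libraries was shCdGAP replicate 1.

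That library was high in many members. It was the highest of the 3 shCdGAP libraries for 18 of 25 tested members (72%) and for 49.15% of all tested genes. It was at least 1.5 times both its replicates for 11 members (44%) and for 18.7% of all tested genes. Those 11 were Cd37, Cd53, Cd63, Cd81, Tspan1, Tspan7, Tspan9, Tspan12, Tspan13, Tspan17 and Upk1a. The same library had the lowest Arhgap31 level, and whether the lower level bears on these values was not tested. Without it, 3 members rose as before and 10 fell, which was 52% of 25 members called against 41.8% of all tested genes (19.9% higher and 21.9% lower). The members then lower besides Tspan11, Tspan6 and Cd53 were Cd63, Tspan1, Tspan5, Tspan9, Tspan12, Tspan14 and Tspan31. Without both libraries numbered 1 the members' counts were again 3 and 10, against 52.2% of all tested genes called (25.5% higher and 26.7% lower). With the replicate block 3 members rose and 5 fell (32%, against 20.4% of all tested genes, 9.47% higher and 10.9% lower). DESeq2 called 3 higher and 5 lower (32%, against 23.2%, 11.1% higher and 12.1% lower). The 32% is over the 25 members that passed the edgeR filter. The 23.2% is over 16940 genes, a wider set than the 13483 genes of that filter. Each 52% of members is over the same 25 members. The 41.8% and 52.2% of all genes are over 13831 and 13625 genes, filtered anew on the libraries kept.

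**Figure D3:**
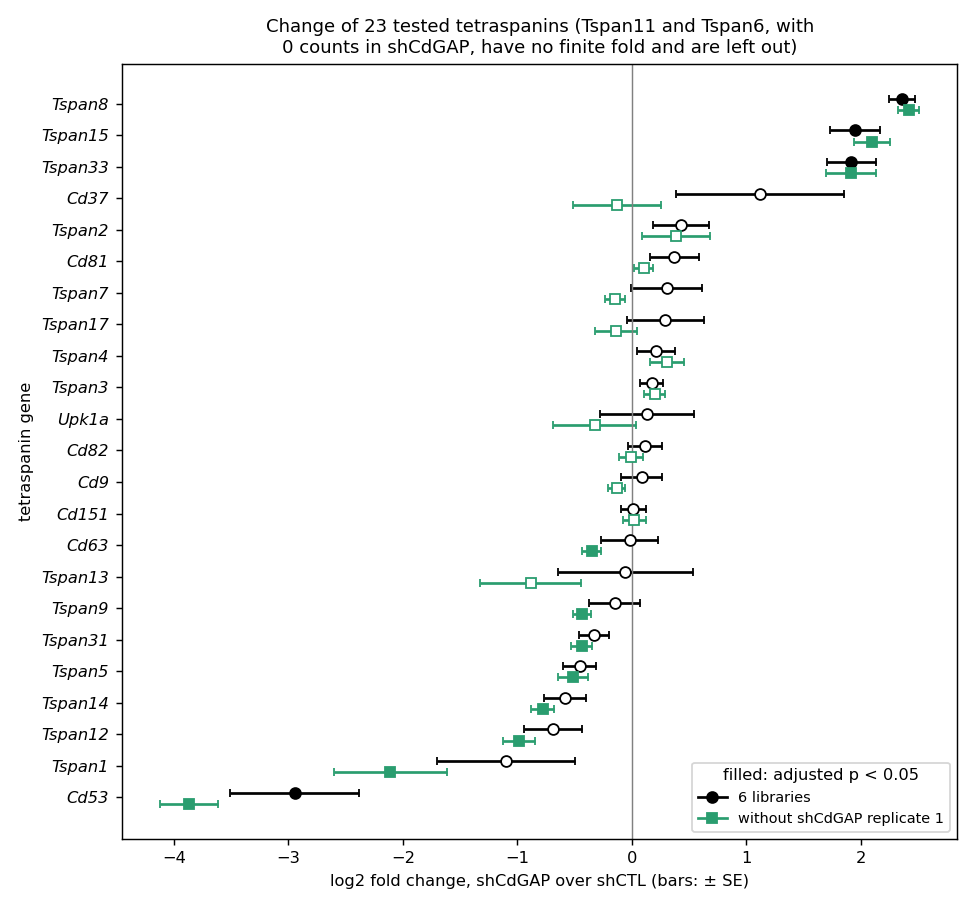
Log2 fold change of 23 tested tetraspanins, shCdGAP over shCTL, with bars of 1 SE, over 6 libraries (black circles) and without shCdGAP replicate 1 (green squares); filled symbols passed the test. Tspan8, Tspan15, Tspan33 and Cd53 pass in both, and 7 further genes pass on the lower side only without that library.

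Several abundant members were lower in shCdGAP without passing the test on 6 libraries. Tspan12, which strengthens signalling by Norrin through the receptor Frizzled4, was at 107, 82.2 and 79.9 CPM in shCTL and 77.2, 46.8 and 42.9 CPM in shCdGAP. The groups did not overlap, though shCdGAP replicate 1 came close to the shCTL libraries (log2 fold change −0.69 ± 0.252 SE, adjusted p = 0.106). With the replicate block the Tspan12 log2 fold change was −0.72 and passed (adjusted p = 0.0254), as it did without shCdGAP replicate 1 (−0.98, adjusted p = 0.00109). Tspan12 did not pass with DESeq2 (0.0583), RLE size factors (0.0942), a mean of at least 1 CPM (0.0862) or no filter (0.0735). Nor did it pass on leaving out any other single library (up to 0.229). The receptor gene Fzd4 itself fell from 9.32 ± 1.34 to 5.28 ± 1.12 CPM (adjusted p = 0.0424). Fzd4 was named after its value was seen, and its call was lost with the block (0.0609) and on leaving out each library but shCdGAP replicate 1 (up to 0.171). The Norrin gene Ndp was counted 4 times in shCTL and never in shCdGAP, and was not tested. Lrp5, from the same list of partners, was higher in mean without passing (188 ± 8.46 and 223 ± 43.2 CPM, edgeR adjusted p = 0.297). Ndp and Lrp5 were also named after their values were seen. Tspan31, which was found amplified in sarcomas together with its neighbour Cdk4, was at 157, 180 and 179 CPM in shCTL and 158, 129 and 123 CPM in shCdGAP. Its groups overlapped through shCdGAP replicate 1 (log2 fold change −0.33 ± 0.133 SE, adjusted p = 0.132), and without that library it was −0.44 and passed (adjusted p = 0.00582). Tspan31 shares 604 of its 1516 exon bases with Cdk4 on the opposite strand, and the counting was by strand. Tspan9 passed only without shCdGAP replicate 1 or without both libraries numbered 1 (log2 fold change −0.44 and −0.41, adjusted p = 0.0036 and 0.00039).

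Tspan3 and Tspan4 were abundant in both groups. Tspan3 was at 115, 129 and 133 CPM in shCTL and 139, 140 and 146 CPM in shCdGAP, a small separation that did not pass (log2 fold change 0.17 ± 0.0982 SE, adjusted p = 0.263). Tspan4, a tetraspanin of migrasomes, the vesicles that migrating cells leave behind, was at 146, 194 and 213 CPM against 188, 214 and 238 CPM, with overlapping groups (adjusted p = 0.43). Tspan4 follows Cd151 on the same strand of chromosome 7, 3760 bases further and with 1 gene between them, and neither member passed the test. Of the 17 members with a mean of at least 10 CPM in a group, 3 were called, and the log2 fold changes of the other 14 lay between −0.69 and 0.37. Over all 13483 tested genes, at any level, 21.7% were called, and the share among genes of at least 10 CPM was not computed.

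The remaining members were scarce. Tspan1 was at 0.516 to 0.873 CPM in shCTL and at 0.626, 0.136 and 0.159 CPM in shCdGAP (adjusted p = 0.251). It passed as lower without shCdGAP replicate 1 (log2 fold change −2.11, adjusted p = 0.0102), on 49 counts in the shCTL libraries. Tspan2, a tetraspanin of oligodendrocytes, was at 0.640 to 0.877 CPM in shCTL and 0.991 to 1.12 CPM in shCdGAP, separate but not passing (adjusted p = 0.272). Tspan13 (adjusted p = 0.96) and Upk1a (adjusted p = 0.856) had overlapping groups and stayed at or under 1.25 CPM. Tspan18, known from endothelium, was counted 5 times in shCTL and 6 times in shCdGAP, too few for a test.

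The summed family level, in CPM per kb, was 1288, 1395 and 1408 in shCTL and 1844, 1321 and 1299 in shCdGAP. Only shCdGAP replicate 1 lay outside the shCTL range. Cd63 held 35.8% to 36.5% of the sum in shCTL and 37.7%, 29.8% and 28.6% in shCdGAP replicates 1 to 3. Tspan8 held 1.67% to 1.78% in shCTL and 6.16%, 9.20% and 9.94% in shCdGAP. The 6 called members together made up 2.68% to 2.75% of the sum in shCTL and 7.17% to 11.8% in shCdGAP, most of it Tspan8. Since these members were picked by their calls, the last figures are a description only.

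**Figure D4:**
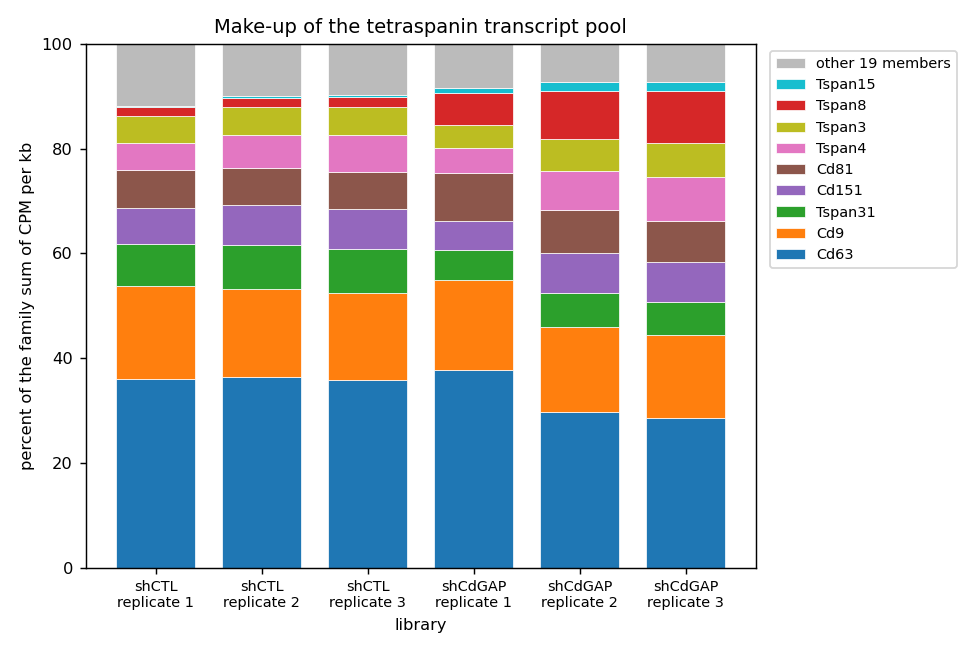
Share of each tetraspanin in the family's summed CPM per kb, 1 bar per library. Cd63 and Cd9 make up the largest shares throughout, and Tspan8 (red) widens from at most 1.78% in shCTL to between 6.16% and 9.94% in shCdGAP.

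Of 36 genes for known binding partners of tetraspanins, 28 were tested, 5 rose and 6 fell (median log2 fold change 0.08). Among all tested genes 10.4% were called higher and 11.4% lower, and whether this or any other gene list differed from that was not tested. Vcam1, which encodes an adhesion molecule, went up from 4.09 ± 0.507 CPM to 47.3 ± 6.33 CPM in shCdGAP (adjusted p = 0.000163) and Icam1 from 0.384 ± 0.0254 to 3.28 ± 1.61 CPM (adjusted p = 0.00545). Prkcb, a protein kinase C gene, was counted 212 times in shCTL and never in shCdGAP, at least 67-fold lower (adjusted p = 0.00226). The integrin gene Itga6 fell from 550 ± 102 to 112 ± 8.53 CPM (log2 fold change −2.29 ± 0.16 SE, adjusted p = 0.00042).

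Among 12 tested genes of laminin-binding integrins and laminins, 1 rose and 4 fell (median log2 fold change −0.15). The shares over all tested genes were 10.4% higher and 11.4% lower, and a difference from them was not tested. Besides Itga6, the laminin chain gene Lamb1 fell from 22.1 ± 3.68 to 3.14 ± 0.289 CPM (adjusted p = 0.000373), and Lamb3 rose from 112 ± 7.26 to 179 ± 30.7 CPM (adjusted p = 0.022). The Lamb3 call was lost without any one shCTL library or without shCdGAP replicate 3 (adjusted p up to 0.104). Of the other subunits that CD151 binds, chosen after their values were seen, Itga3 fell from 1272 ± 26.3 to 753 ± 160 CPM (adjusted p = 0.0242, lost without any one shCTL library, up to 0.0918). Itgb1 (664 ± 11.5 and 699 ± 97.8 CPM, adjusted p = 0.723) and Itgb4 (123 ± 38.6 and 172 ± 61.2 CPM, adjusted p = 0.353) did not pass. Igsf8, a partner of CD9 and CD81 chosen in the same way, rose from 103 ± 9.81 to 141 ± 8.9 CPM (adjusted p = 0.0339). That call was lost with the block (0.0663), without a filter on low counts (0.0655) and when a shCTL library or shCdGAP replicate 2 was left out (up to 0.138).

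**Figure D5:**
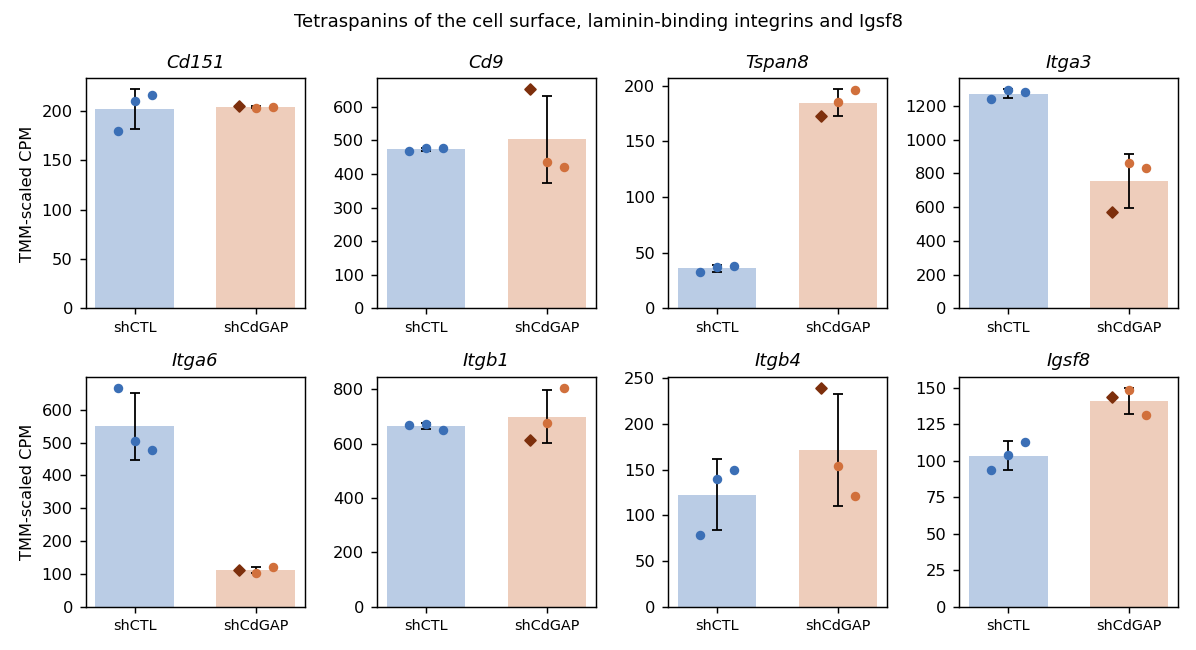
TMM-scaled CPM of Cd151, Cd9, Tspan8, 4 integrin subunit genes and Igsf8, with bars for group means, error bars for SD (n = 3), circles for libraries and dark diamonds for shCdGAP replicate 1. Itga6 and Itga3 lie lower in all shCdGAP libraries while Cd151 and Itgb1 overlap.

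Of 30 tested genes of extracellular vesicles and multivesicular bodies, through which tetraspanins travel, 5 rose and 1 fell (median log2 fold change 0.11). The share called was close to the 21.7% of all tested genes. Besides Sytl4 (0.0247 ± 0.0214 to 0.673 ± 0.0802 CPM), an effector of Rab27, the recycling GTPase gene Rab11a rose from 157 ± 10.3 to 294 ± 39.3 CPM (adjusted p = 0.00446). Chmp6, an ESCRT subunit gene, fell from 115 ± 0.483 to 83.5 ± 6.24 CPM (adjusted p = 0.0196), a call lost without a filter (0.0526) and when a shCTL library or shCdGAP replicate 2 was left out (up to 0.0942). Of 16 genes of late endosomes and lysosomes 1 was called (median log2 fold change 0.08), the protease gene Ctsl, which fell from 1623 ± 63.2 to 908 ± 155 CPM (adjusted p = 0.00976, and 0.0503 without shCTL replicate 2). Of 6 acyltransferase genes for tetraspanin palmitoylation, Zdhhc6 (84.5 ± 0.915 to 108 ± 1.98 CPM, adjusted p = 0.0273) and Zdhhc4 (19.9 ± 3.13 to 29.6 ± 1.55 CPM, adjusted p = 0.043) rose. Both calls were lost with the block (0.0547 and 0.06), without a filter (0.0971 and 0.0673) and on leaving out each library but shCdGAP replicate 1 (up to 0.139).

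Tetraspanins outside the symbol rule and other small membrane protein families were read beside the members. Of 3 tested genes of uroplakins and their partners 2 rose. Upk1b, a uroplakin and the sister of Upk1a, rose from 0.331 ± 0.214 to 2.14 ± 1.2 CPM (adjusted p = 0.0284), and its call was lost on leaving out each library but shCdGAP replicate 1 (up to 0.109). Upk1b lies on chromosome 16 from 38773184 to 38800203, near the targeted gene Arhgap31 (38598340 to 38713274). Whether this place bears on its rise was not tested. Upk3b, the uroplakin that pairs with Upk1b, rose from 0.213 ± 0.143 to 1.49 ± 0.369 CPM (adjusted p = 0.00902), and Rom1 did not pass (6.38 ± 0.376 and 7.32 ± 2.68 CPM, adjusted p = 0.658). Of 15 tested genes from other families of membrane proteins with the same number of passes, 4 rose and 1 fell (median log2 fold change 0.40). The shares over all tested genes were 10.4% higher and 11.4% lower. Pllp (2.27 ± 0.166 to 18.2 ± 7.73 CPM, adjusted p = 0.00181) and Cmtm8 (3.48 ± 0.501 to 16.5 ± 6.14 CPM, adjusted p = 0.0038) rose, and Emp1 fell from 1067 ± 40.9 to 342 ± 92.8 CPM (adjusted p = 0.00306).

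The promoters of the 3 risen members are shown because these genes rose together, and E-boxes were searched because CdGAP is known to act with the repressor Zeb2, which binds them. Zeb2 itself fell from 34.4 ± 8.04 to 17.6 ± 1.75 CPM (log2 fold change −0.97 ± 0.194 SE, edgeR adjusted p = 0.0158). Its level was added after its values were seen, and whether it bears on the members was not tested. A match is a description of letters, not a binding site. RefSeq promoters (GRCm38.p6) matched 27 of the 28 members by symbol, with 37 start sites in all, and the 250 bases before each start were searched for CACCTG and its reverse complement CAGGTG. At least 1 match was found in 24.3% of the members' promoters (7 genes) and in 17.2% of all 32851 promoters. Among the called members it was found in Tspan33 alone, 154 bases before the start. The sequences run 5′ to 3′ on the strand of the gene, with the match in capitals.
Tspan8, chr10:115817034-115817283: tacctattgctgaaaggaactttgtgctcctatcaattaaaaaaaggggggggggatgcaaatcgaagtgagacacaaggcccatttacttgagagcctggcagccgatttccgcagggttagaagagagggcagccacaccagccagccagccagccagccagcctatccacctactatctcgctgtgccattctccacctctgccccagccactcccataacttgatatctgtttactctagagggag
Tspan15, chr10:62231219-62231468: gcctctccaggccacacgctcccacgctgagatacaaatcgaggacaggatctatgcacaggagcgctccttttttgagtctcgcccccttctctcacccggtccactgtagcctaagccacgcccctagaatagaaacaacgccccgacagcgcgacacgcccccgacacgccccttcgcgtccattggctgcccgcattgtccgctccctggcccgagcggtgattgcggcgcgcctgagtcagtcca
Tspan33, chr6:29693964-29694213: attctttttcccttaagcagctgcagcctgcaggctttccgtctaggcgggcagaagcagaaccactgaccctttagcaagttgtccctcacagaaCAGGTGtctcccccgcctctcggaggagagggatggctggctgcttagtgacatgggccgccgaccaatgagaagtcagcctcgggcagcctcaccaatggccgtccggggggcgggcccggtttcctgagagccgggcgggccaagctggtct
The other genes with a match were Cd151, Cd37, Cd82, Cd9, Tspan1 and Tspan4, none of which was called on 6 libraries. CpG pairs numbered 4 in the Tspan8 window, 23 in Tspan15 and 13 in Tspan33, and 4, 5 and 2 in those of Tspan11, Tspan6 and Cd53, against a median of 8 over the members' promoters and 6 over all promoters.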

How the data were processed

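Total RNA of 6 libraries (shCTL and shCdGAP, 3 each) was sequenced. The deposited counts are paired fragments per gene, made by the authors with featureCounts 1.4.6 on the Ensembl 77 annotation of GRCm38 with reverse-strand counting, per the file headers. Per the submitters' processing notes, TopHat2 2.0.14 and Trimmomatic 0.30 were among the tools, as were DESeq, Cuffdiff 2.2.1 and CASAVA 1.8. Summed exon length per gene was also deposited.

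Genes were filtered with filterByExpr (minimum count 10, minimum total 15), scaled by TMM and tested with edgeR 4.0.16's quasi-likelihood test (limma 3.58.1, R 4.3.3), with Benjamini-Hochberg adjustment over 13483 genes and a threshold of 0.05. SE is the absolute log2 fold change over the root of the F statistic. CPM and CPM per kb are descriptive. A fold against a group at 0 was computed against 3 counts over that group. In data simulated from these libraries' means (13483 genes), edgeR called 48% of genes changed 2-fold and 94% of those changed 4-fold, and 3.40% of its calls were false. DESeq2 called 50% and 91% of them, and 10.2% of its calls were false, so its calls were the less strict in this simulation. The simulation was not repeated, so it does not settle which tool is the stricter in the data. Only a small part of the genes was changed in the simulation. Its libraries were drawn independently, with none set apart as shCdGAP replicate 1 is in the data.

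The members and lists were chosen with earlier results of these data known. Named were every called member, every member of at least 10 CPM in a group, up to 2 risen and 2 fallen genes of each list with the smallest adjusted p, and Arhgap31; others are marked in the text. Deviations of same-numbered libraries from their group means correlated at 0.36, 0.29 and 0.25 for numbers 1 to 3. Each exceeded 0.1, the rule for trying the numbers as pairs, which comes from the data and not from the labels. Deviations within a group sum to 0, so these correlations depend on each other and do not establish pairs. The main test was unpaired, and the replicate block was an alternative only. Number 1 stood apart, while shCTL 3 with shCdGAP 2 (0.25) and shCTL 2 with shCdGAP 3 (0.19) correlated similarly, so numbers 2 and 3 were not told apart. DESeq2 1.42.0, RLE size factors, other filters, the replicate block and left-out libraries were the alternatives.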

Additional observations from a re-analysis of the deposited data

How the results depend on the processing

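The calls of Tspan8, Tspan15, Tspan33, Tspan11, Tspan6 and Cd53 held, in the same direction, in every alternative in which the gene was tested, with adjusted p of at most 0.0477 (Cd53). The count of members called lower was 5 with DESeq2, 5 with the replicate block and 10 without both libraries numbered 1. With the block, which pairs libraries by number, Tspan12 and Tspan14 were the 2 added members. Leaving out 1 library at a time, 3 to 10 members were called lower and 538 to 2753 of all genes higher and 856 to 3032 lower; without both libraries numbered 1 these were 3475 and 3640. The causes were not tested. With 3 libraries a group, 2-fold changes were often missed in simulated data, so a member that was not called may still differ.

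For the gene lists, DESeq2 called 2 TspanC8 genes lower, 6 ADAM10 genes higher, 2 late endosome genes lower, 1 leukocyte marker lower and 4 endothelial markers lower. With a mean of at least 1 CPM the counts were 1 TspanC8 gene lower, 1 uroplakin gene higher, 0 leukocyte markers higher, 0 endothelial markers lower and 1 epithelial marker lower. Without a filter they were 0 palmitoyltransferases higher, 0 vesicle genes lower, 2 late endosome genes lower, 1 leukocyte marker lower and 3 endothelial markers lower. With the replicate block they were 1 TspanC8 gene lower, 0 palmitoyltransferases higher, 2 late endosome genes lower, 2 genes of other 4-pass families lower, 1 leukocyte marker lower, 0 endothelial markers lower and 1 adipocyte marker lower. Without both libraries numbered 1 they were 2 TspanC8 genes, 1 vesicle tetraspanin, 12 binding partners, 1 palmitoyltransferase, 9 vesicle genes, 9 late endosome genes, 4 genes of other 4-pass families, 4 leukocyte markers, 1 fibroblast marker and 2 endothelial markers lower. On the higher side they were 2 laminin genes, 10 ADAM10 genes, 5 palmitoyltransferases, 8 vesicle genes, 7 genes of other 4-pass families, 2 leukocyte markers and 6 epithelial markers. In that setting 25.5% of all tested genes were called higher and 26.7% lower, against 10.4% and 11.4% on 6 libraries. These shares were 11.1% and 12.1% with DESeq2 and 9.47% and 10.9% with the replicate block. Whether any list differed from the share of its setting was not tested.

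Leaving out 1 library at a time, the counts called higher ran from 1 to 2 (uroplakins), 0 to 1 (tetraspanins outside the symbol rule), 2 to 5 (binding partners), 0 to 2 (laminins), 1 to 7 (ADAM10 genes), 0 to 3 (palmitoyltransferases), 3 to 7 (vesicle genes), 1 to 2 (leukocyte markers) and 2 to 6 (epithelial markers). Those called lower ran from 0 to 2 (TspanC8 and endothelial markers), 0 to 1 (vesicle tetraspanins, palmitoyltransferases and fibroblast markers), 4 to 11 (binding partners), 0 to 6 (vesicle genes), 0 to 8 (late endosome), 1 to 4 (other 4-pass families) and 0 to 3 (leukocyte and adipocyte markers).

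The sign of 9 members that did not pass turned in some alternatives. Leaving out 1 library at a time, log2 fold changes ran from −0.076 to 0.064 (Cd151), −0.13 to 1.53 (Cd37), −0.35 to 0.15 (Cd63), −0.0051 to 0.24 (Cd82), −0.13 to 0.20 (Cd9), −0.88 to 0.33 (Tspan13), −0.14 to 0.51 (Tspan17), −0.15 to 0.51 (Tspan7) and −0.33 to 0.35 (Upk1a). Without both libraries numbered 1 they were −0.057 (Cd151), −0.29 (Cd37), −0.035 (Cd82), −0.14 (Cd9), −0.29 (Tspan17), −0.17 (Tspan7) and −0.28 (Upk1a), and for Cd151 −0.0061 with a mean of at least 1 CPM.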
